A study of Mus musculus with 16 samples.

Results

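A set of 9 genes that mark lymphatic endothelium were followed in RNA-seq libraries of sorted lymph node macrophages. They are Lyve1, Prox1, Pdpn, Flt4, Mmrn1, Ackr4, Cldn5, Madcam1 and Reln, 9 of the 55421 gene rows of the count table, and they were found by matching the Ensembl identifiers of the table to gene symbols. The samples were subcapsular sinus macrophages (SSMs) and medullary sinus macrophages (MSMs) of male C57B/6 mice that carried MOC2, a chemically induced squamous cell carcinoma, implanted intradermally in the flank as 500000 cells 2 weeks earlier. Tumor-draining lymph nodes (tdLN) were compared with non-draining lymph nodes (ndLN) of the same tumor-bearing mice, so no group came from a mouse without a tumor. Each of the 4 groups had 2 libraries, and each library pooled the nodes of 2 mice, 2 tdLN or 6 ndLN. The ndLN were inguinal, axillary and brachial nodes of the other side, and the tumor lay near the inguinal node. Drainage and node site thus cannot be told apart. About 10000 cells per sample were sorted as live CD45+ CD3- B220- Ly6G- CD11b+ CD169+ cells, with SSMs taken as CD11c- and low in side scatter and MSMs as CD11c+ and high in side scatter. Endothelial cells lack CD45 and lie outside this gate.

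Lymphatic endothelial cells line the sinuses in which both macrophage subsets sit. Prox1 is the transcription factor that sets lymphatic identity, and Flt4 (VEGFR3) is the receptor through which VEGF-C drives lymphatic growth. Lyve1 binds hyaluronan, Pdpn (podoplanin) is a membrane mucin that binds the platelet receptor CLEC-2, and Mmrn1 and Reln encode secreted glycoproteins. Ackr4 is a scavenging receptor for the chemokines CCL19, CCL21 and CCL25 on the sinus ceiling, Madcam1 is an adhesion molecule for the integrin α4β7 on sinus floor cells and on venules, and Cldn5 is a tight junction protein shared by lymphatic and blood endothelium. Several of these genes are not exclusive to endothelium: Lyve1 and Pdpn are also known in macrophages, and Pdpn also marks fibroblastic reticular cells.

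Little of this program was detected. The 9 genes together gave between 161 and 864 counts per library, or between 3.46 and 18.0 CPM (counts scaled to a library of 1000000). Of the 72 values (9 genes in 8 libraries), 27 were 0, 33 were at or under 3 counts and 9 were over 100. Only Flt4 was above 3 counts in all 8 libraries. The filter on low counts asked for 10 or more counts in total and for 2 or more of the 16 lane samples with a count. It was passed by 7 genes, which were tested, whereas Ackr4 and Reln did not pass and are given as counts. A library held between 42972328 and 48130352 counts, and 3 counts were taken as the floor, a limit that covers counting error only. CPM values below are scaled by TMM, a normalization that aligns the bulk of genes between libraries, and on that scale the floor was between 0.0552 and 0.0769 CPM. A fold against a group at 0 was set against the mean floor of its libraries, 0.0579 CPM in ndLN SSMs and 0.0719 CPM in ndLN MSMs.

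**Figure D1:**
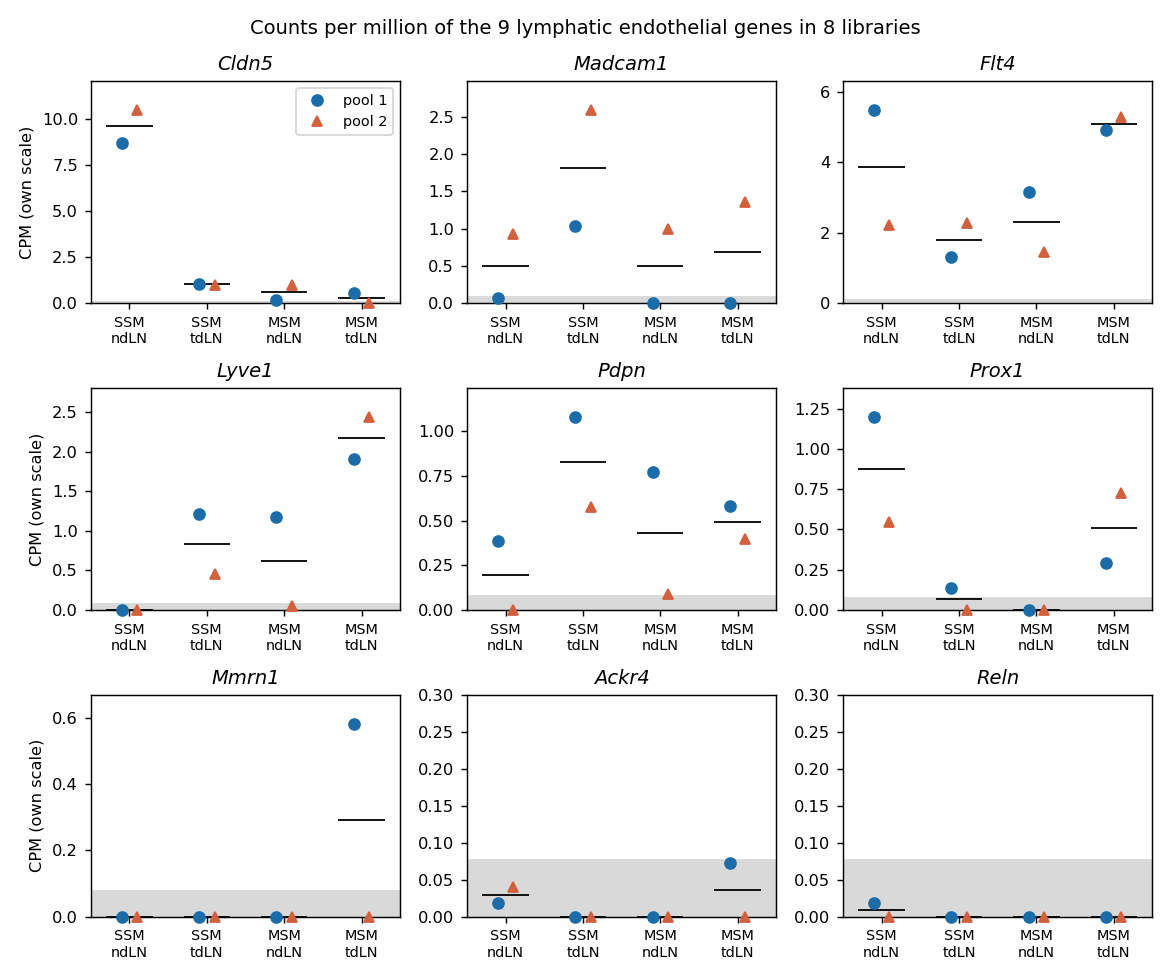
Each panel plots 1 gene in CPM on its own scale, with circles for pool 1, triangles for pool 2, a bar for the mean of each group and a grey band up to the highest TMM-scaled floor of 3 counts (0.0769 CPM). Cldn5 reaches 8.72 and 10.5 CPM in ndLN SSMs and at most 1.05 CPM elsewhere, whereas Ackr4 and Reln lie at or near the floor in all 8 libraries.

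Reln, Ackr4 and Mmrn1 were the scarcest. Reln had 1 count in all, in ndLN SSMs of pool 1. Ackr4 had 6 counts in all, with 1 and 2 in ndLN SSMs, 3 in tdLN MSMs of pool 1 and 0 in the other libraries. Its largest value, 3 counts, was at the floor (0.0727 CPM), and no difference between groups was detectable at this depth. Mmrn1 had 24 counts, all in tdLN MSMs of pool 1 and split 13 and 11 between lanes 3 and 4, whereas the other 7 libraries had 0. The single library sets every value of Mmrn1, and no fold is given.

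Ccl21a, which encodes the chemokine CCL21 and is among the most abundant transcripts of lymphatic endothelium, had 0 counts in all 8 libraries. This zero is uncertain, because the gene (GRCm38 chromosome 4, 42772860 to 42773993, minus strand) has near-identical copies. Of its 50-base windows, 71.6% were also in Ccl21b, Gm10591, Gm13304 or Gm21541, whose rows were at 0 as well, and reads that match several genes can be left uncounted. The start of its coding sequence is shown beside that of Cldn5, which has no such copy, with the start codon in capitals.
Ccl21a: ATGgctcagatgatgactctgagcctcctt
Cldn5: ATGgggtctgcagcgttggaaattctgggt
The 30 bases of Ccl21a were found in transcripts of 5 genes and those of Cldn5 in 1 gene, in the GENCODE M21 transcripts. None of the 50-base windows of Lyve1, Mmrn1, Madcam1 or Cldn5 was in another gene. For Flt4, Pdpn, Prox1 and Reln 0.377%, 0.0552%, 1% and 0.87% were shared. Ackr4 shared 7.21% with Acad11, which overlaps it on the opposite strand, as Prox1os overlaps Prox1, and whether the counting used strand is not given in the sources used here.

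Levels of different genes were compared as CPM per kilobase of exon, averaged over the 8 libraries. Cldn5 stood highest at 2.03, followed by Madcam1 at 0.609, Flt4 at 0.396, Lyve1 at 0.311 and Pdpn at 0.266. Prox1 at 0.0431 and Mmrn1 at 0.0124 were lower, and Ackr4 and Reln were lowest at 0.00306 and 9.68e-05. The ranges over libraries of Madcam1 (0 to 1.80), Flt4 (0.161 to 0.666), Lyve1 (0 to 0.837) and Pdpn (0 to 0.592) overlapped with each other and with that of Cldn5 (0.0155 to 7.39), so the order of these 5 does not exceed the spread between libraries. The order also differed between groups. Cldn5 was highest in ndLN SSMs at 6.77, Madcam1 in tdLN SSMs at 1.26 against 0.728 for Cldn5, and Lyve1 in tdLN MSMs at 0.747 against 0.196. On this scale 58.1% of the tested genes were below Cldn5 and 40.4% below Flt4, and 13.7% were below Prox1. The leukocyte gene Ptprc (CD45) averaged 88.1 and Csf1r, the macrophage growth factor receptor, averaged 120.

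**Figure D2:**
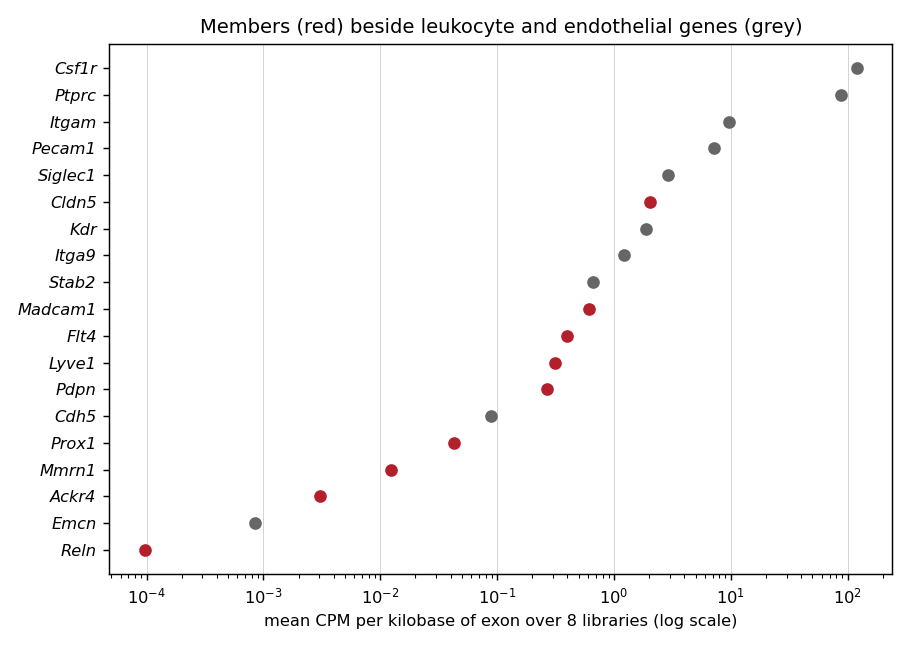
Points are mean CPM per kilobase of exon over 8 libraries on a log axis, in red for the 9 genes and in grey for leukocyte and endothelial genes. Cldn5 (2.03) lies near Kdr (1.87), whereas Prox1 (0.0431) lies below the endothelial cadherin gene Cdh5 (0.0882).

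Cldn5 was the only one of the 9 genes to pass the test of edgeR in any comparison, and DESeq2's Wald test, an alternative, also called Prox1 and Lyve1. It is a gene of a single exon on chromosome 16 (18776847 to 18778262, plus strand, GRCm38). ndLN SSMs had 474 and 518 counts, tdLN SSMs 47 and 44, ndLN MSMs 7 and 45, and tdLN MSMs 22 and 1. Both libraries of ndLN SSMs stood above all 6 others, whereas the counts of tdLN SSMs overlapped with those of ndLN MSMs and lay above those of tdLN MSMs. In CPM tdLN SSMs, at 1.01 and 1.05, were just above ndLN MSMs, at 0.179 and 1.00. In CPM the group means were 9.59 ± 1.24 in ndLN SSMs, 1.03 ± 0.0319 in tdLN SSMs, 0.591 ± 0.582 in ndLN MSMs and 0.278 ± 0.361 in tdLN MSMs (SD, n = 2 each).

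The first comparison asked how SSMs and MSMs differed in nodes away from the tumor. Cldn5 was higher in SSMs by 3.96 on the log2 scale (SE 0.577, adjusted p = 0.00188, quasi-likelihood test of edgeR, adjusted by Benjamini-Hochberg over all genes), and 1 of the 7 tested genes passed the threshold of 0.01, beside 14.0% of all 21085 genes tested. Without any one of the 4 libraries compared, the call was lost, with adjusted p-values of 0.0155 and 0.0219 without pool 1 or 2 of the SSMs and 0.0287 and 0.0157 without pool 1 or 2 of the MSMs. The log2 difference was then 3.27 without MSM pool 1 and 5.70 without MSM pool 2. In tdLN the log2 difference of Cldn5 between SSMs and MSMs was 1.95 (SE 1.06, adjusted p = 0.287), a value set by single MSM libraries, since it was 5.57 without pool 1 and 0.76 without pool 2 of tdLN MSMs. Over both kinds of node, it was 3.49 (SE 0.656, adjusted p = 0.00278), again the 1 call among 7 tested, beside 15.4% of all genes. That call was lost without either pool of ndLN SSMs or of ndLN MSMs or without pool 2 of tdLN MSMs, with adjusted p-values between 0.0124 and 0.0209.

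The second comparison set SSMs of the node that drains the tumor against SSMs of ndLN, which also came from other node sites. Cldn5 fell by 3.21 on the log2 scale in tdLN (SE 0.514, adjusted p = 0.00926), in both pools, and was the 1 call among 7 tested genes by edgeR, beside 3.16% of all genes. This call lay close to the threshold and was lost on leaving out any 1 of the 8 libraries, with adjusted p-values between 0.0161 and 0.154, whereas the log2 difference stayed between -3.40 and -3.03. By DESeq2's Wald test the same difference was -3.28 with an adjusted p of 0.0163, and the 1 gene that test called was Lyve1. In MSMs the log2 difference of Cldn5 between tdLN and ndLN was -1.20 (SE 1.21, adjusted p = 0.751), with pool 1 higher in tdLN and pool 2 lower, and it ranged from -4.80 to 0.54 with 1 library left out. The difference between the subsets in this response was not past the threshold (log2 -2.01, SE 1.50, adjusted p = 0.708, and between -3.75 and 1.59 with 1 library left out), so the fall was not shown to be particular to SSMs.

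**Figure D3:**
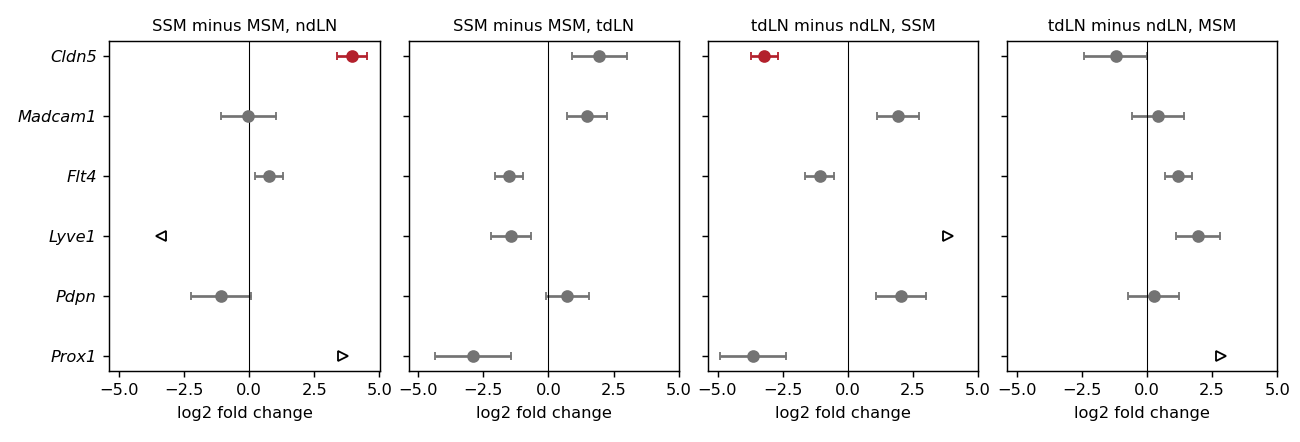
Points are log2 fold changes with their SE for 6 tested genes in 4 comparisons, in red where the adjusted p is under 0.01 and in grey otherwise, and open triangles mark lower bounds where one group was at or under 3 counts in both libraries. Cldn5 is in red for the subsets in ndLN (3.96) and for the node effect in SSMs (-3.21), and no other gene is.

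Some marker lists of other cells, those of T cells and of mast cells and basophils, were also highest in ndLN SSMs. The B cell and dendritic cell lists were not. They summed to 315 to 403 and 1410 to 2130 CPM there, against 559 to 1690 and 3600 to 3990 in ndLN MSMs. The T cell markers had a median log2 difference between subsets of 3.27 in ndLN and 4.55 in tdLN, and Cldn5 3.96 and 1.95. Of 11 T cell markers, 10 were higher in ndLN SSMs than in ndLN MSMs and 1, Cd8a, was lower, beside 14.0% of all genes called. Cd40lg, the CD40 ligand gene, and the costimulatory receptor gene Icos led with log2 differences of 5.85 and 4.40. Within tdLN, Cd40lg was higher in SSMs than in MSMs by 6.74. The 11 T cell markers summed to 2310 to 2530 CPM in ndLN SSMs, 1020 to 1170 in tdLN SSMs, 678 to 824 in ndLN MSMs and 492 to 534 in tdLN MSMs. Cd8a alone had 605 and 387 CPM in ndLN MSMs and 357 and 439 in tdLN MSMs. Without Icos and Cd8a the other 9 summed to 1350 to 1460, 591 to 648, 181 to 234 and 77.4 to 114 CPM in the same order of groups. Of 7 mast cell and basophil markers, 6 were higher in ndLN SSMs than in ndLN MSMs, beside the same 14.0%. The 7 summed to 1060 to 1910 CPM in ndLN SSMs, 143 to 404 in tdLN SSMs and at most 4.32 in MSMs. Tpsb2, a mast cell tryptase gene, was higher in tdLN SSMs than in tdLN MSMs by 8.89 on the log2 scale. In SSMs, 3 T cell markers (Cd4, Cd8b1 and Zap70) and the mast cell protease gene Cpa3 fell in tdLN, and the basophil protease gene Mcpt8 rose. Of all genes, 3.16% were called in that comparison. With 1 library left out, between 8 and 10 of the T cell markers and between 3 and 6 of the mast cell and basophil markers were called between the subsets in ndLN. In SSMs the calls between tdLN and ndLN then numbered 0 to 1 and 0 to 3. Of the mast cell markers, Ms4a2 and Mrgprb1 were at 0 in ndLN MSMs, and none of the T cell markers was at 0 in a whole group. The part of these cells in the values of Cldn5 was not tested. In bulk samples, fewer cells of a type and less RNA per cell cannot be told apart.

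Endothelial markers were set beside it too. Of 14 pan-endothelial genes, 11 of them tested, 3 were higher in ndLN SSMs than in ndLN MSMs, beside 14.0% of all genes called. These were Pecam1, S1pr1 and Eng, which leukocytes are also known to express. The call of S1pr1 was kept with each of the 8 libraries left out in turn, and those of Pecam1 and Eng were lost without any 1 of them. Their list summed to 288 to 321 CPM in ndLN SSMs, 159 to 179 in tdLN SSMs, 67.3 to 103 in ndLN MSMs and 71.8 to 75.1 in tdLN MSMs. S1pr1 and Pecam1 made up between 88.9% and 93.2% of the sum in ndLN SSMs. The other 12 genes summed to 21.9 to 31.9 CPM there, 41.5 to 52.7 in tdLN SSMs, 17.4 to 20.7 in ndLN MSMs and 38.6 to 44.7 in tdLN MSMs, so that without those 2 genes ndLN SSMs were not the highest. Much of that order was set by Kdr alone. It had 9.49 and 2.71 CPM in ndLN SSMs, 39.0 and 29.5 in tdLN SSMs, 8.61 and 3.39 in ndLN MSMs, and 22.3 and 19.7 in tdLN MSMs. Among the defining markers, Sox17 and Robo4 were at 0 in all libraries and Emcn had 2 counts in a single library. Cdh5 had 8 and 3 counts in ndLN SSMs, 21 and 7 in tdLN SSMs, 22 and 32 in ndLN MSMs, and 26 and 10 in tdLN MSMs. These counts of Cdh5 are low, and its lowest, 3, was at the floor. Erg, an endothelial transcription factor, had 21 and 25 counts in ndLN SSMs, 2 and 1 in tdLN SSMs and 0 in MSMs. Egfl7 and Mmrn2, also on the list, had 175 of 355 and 19 of 22 counts in pool 2 of ndLN MSMs. The part of endothelial cells in the values of Cldn5 was not tested.

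**Figure D4:**
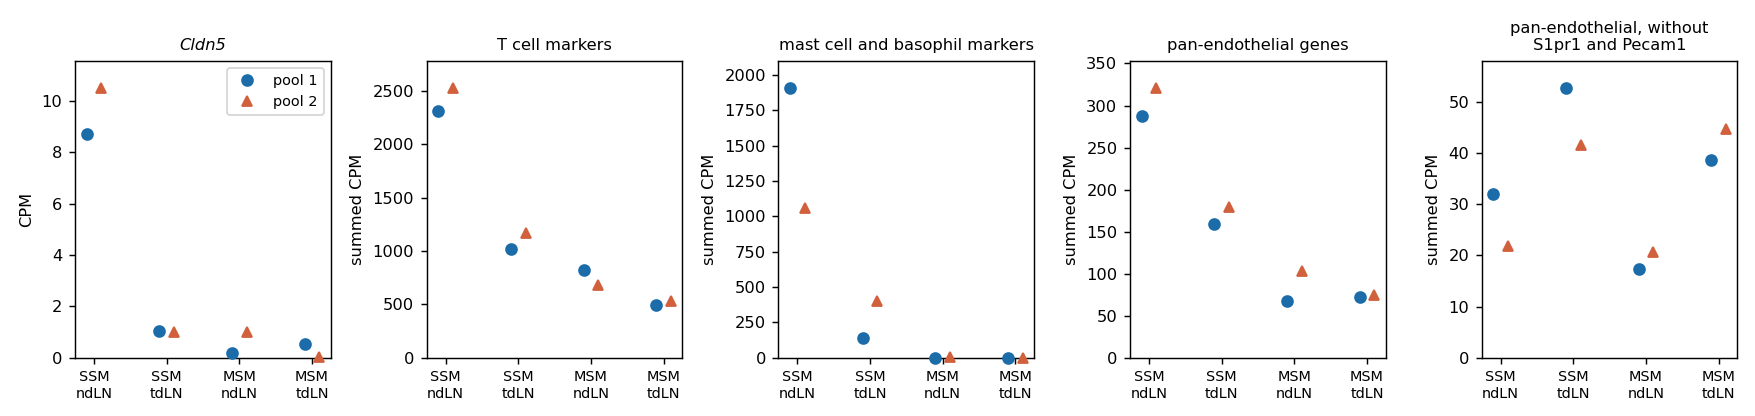
Points are CPM of Cldn5 and the summed CPM of 11 T cell markers, 7 mast cell and basophil markers, 14 pan-endothelial genes and 12 of these without S1pr1 and Pecam1 in each library, with circles for pool 1 and triangles for pool 2. Both libraries of ndLN SSMs lie above the other 6 in the first 4 panels (2310 and 2530 CPM for the T cell markers), and in the last they lie at 21.9 to 31.9 CPM, below tdLN SSMs at 41.5 to 52.7. Cd8a gave 605 and 387 CPM of the T cell sum in ndLN MSMs, and Kdr 39.0 and 29.5 CPM of the last sum in tdLN SSMs.

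Genes whose levels most resembled Cldn5 over the 8 libraries were Uhrf2 (Pearson's r = 0.989), C2 (0.985) and Rab6b (0.984), among 12268 genes with a mean of at least 1 CPM and on log2(CPM + 0.5). C2, a complement gene, had 6.49 and 5.94 CPM in ndLN SSMs and at most 1.17 CPM elsewhere. Uhrf2, a ubiquitin ligase gene, had 172 and 195 CPM there and at most 74.3 CPM elsewhere. The libraries of a group share their sort, and the r values are descriptions.

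Flt4 (chromosome 11, 49609263 to 49652739) was the most evenly detected gene. ndLN SSMs had 298 and 110 counts, tdLN SSMs 59 and 99, ndLN MSMs 123 and 65, and tdLN MSMs 202 and 240. tdLN MSMs were above ndLN MSMs in both pools, whereas tdLN SSMs were lower than ndLN SSMs in pool 1 and nearly level in pool 2 (2.22 and 2.27 CPM). The means were 3.85 ± 2.30 CPM in ndLN SSMs, 1.80 ± 0.669 in tdLN SSMs, 2.30 ± 1.21 in ndLN MSMs and 5.09 ± 0.274 in tdLN MSMs (SD, n = 2 each). In tdLN the log2 difference of SSMs from MSMs was -1.51 (SE 0.540, unadjusted p = 0.0249 and adjusted p = 0.111 by edgeR), and the 2 groups did not overlap. Between tdLN and ndLN the log2 difference was -1.08 in SSMs (SE 0.552, adjusted p = 0.297) and 1.20 in MSMs (SE 0.523, adjusted p = 0.427). In ndLN SSMs differed from MSMs by 0.76 (SE 0.533, adjusted p = 0.351). The interaction, the node difference in SSMs minus that in MSMs, was -2.27 (SE 0.759), with an unadjusted p of 0.0187 and an adjusted p of 0.263 by edgeR. None of the differences of Flt4 passed the threshold. With 1 library left out, they were -2.29 to -0.84 for subsets in tdLN, -1.82 to -0.34 for node in SSMs, 0.80 to 1.69 for node in MSMs, 0.01 to 1.26 for subsets in ndLN and -3.04 to -1.52 for the interaction. The genes most like Flt4 in pattern were Wdpcp (r = 0.988), Ccpg1os (0.939) and Asb7 (0.914), over the same 8 libraries.

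Prox1 (chromosome 1, 190118035 to 190170714) had 65 and 27 counts in ndLN SSMs, 6 and 0 in tdLN SSMs, 0 and 0 in ndLN MSMs, and 12 and 33 in tdLN MSMs. SSMs were lower and MSMs higher in tdLN than in ndLN, in both pools. Against the floor, the mean of ndLN SSMs was at least 12.1-fold higher than that of ndLN MSMs (0.871 ± 0.459 CPM against 0, SD, n = 2, adjusted p = 0.0411 by edgeR). In MSMs, tdLN was at least 7.08-fold higher than ndLN (0.509 ± 0.308 CPM against 0, adjusted p = 0.353). In SSMs the log2 difference between tdLN and ndLN was -3.64 (SE 1.26, adjusted p = 0.125). It was -2.63 without pool 1 of ndLN SSMs and -8.19 without pool 1 of tdLN SSMs, which leaves a library at 0 and a value that is no bound. The interaction had an unadjusted p of 0.0053 and an adjusted p of 0.148. No comparison of Prox1 passed the threshold of 0.01 by edgeR, and by DESeq2's Wald test the comparison of subsets in ndLN did (adjusted p = 0.00653).

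Lyve1 (chromosome 7, 110850607 to 110863239) had 0 counts in both libraries of ndLN SSMs, 54 and 20 in tdLN SSMs, 46 and 2 in ndLN MSMs, and 79 and 111 in tdLN MSMs. The tdLN library was above the ndLN library of the same pool and subset in 4 of 4 pairs. Against the floor, tdLN SSMs were at least 14.4-fold above ndLN SSMs (0.835 ± 0.532 CPM against 0, SD, n = 2), with an adjusted p of 0.158 by edgeR and 0.00118 by DESeq2's Wald test. In ndLN, SSMs were at least 10.6-fold below MSMs (0 against 0.612 ± 0.802 CPM), a mean that rests on pool 1 of the MSMs. That comparison had an adjusted p of 0.157 by edgeR and 0.003 by DESeq2's Wald test. The log2 difference between tdLN and ndLN in MSMs was 1.95 (SE 0.854, adjusted p = 0.439), and that between SSMs and MSMs in tdLN was -1.43 (SE 0.776, adjusted p = 0.299). With 1 library left out, these were 0.97 to 5.45 and -3.04 to -0.45. Between tdLN and ndLN over both subsets the test gave an unadjusted p of 0.00827 and an adjusted p of 0.112. The calls of Lyve1 thus depended on the tool, since edgeR made none. Of 11 listed genes of sinus macrophages, 4 rose in tdLN SSMs (Siglec1, Csf1r, Lyz2 and Mrc1), of which between 0 and 3 were called with 1 library left out, and the log2 differences of Marco and Timd4 were -0.60 and -0.38, not past the threshold. The 4 calls in SSMs stood beside 3.16% of all genes called. The list summed to 17100 to 24600 CPM in tdLN SSMs and 7480 to 10700 in ndLN SSMs, and without Lyz2, the lysozyme gene that made up most of it, to 4170 to 5250 and 2440 to 2730. In MSMs, where Lyve1 was highest, the list summed to 5840 to 6470 CPM in tdLN and 6020 to 6690 in ndLN, and without Lyz2 to 1790 to 2370 and 2020 to 2050. None of the 11 was called between nodes in MSMs by edgeR, with 5 at an unadjusted p under 0.05. Their log2 differences were 2.22 for Siglec1, 1.29 for Mrc1, 0.71 for Itgam, -0.87 for Marco and -1.59 for Timd4. Over both subsets Siglec1 was higher in tdLN by 2.40 (adjusted p = 0.00664 by edgeR), a call lost without 7 of the 8 libraries in turn. The sort markers CD11b and CD11c were on this list, and in ndLN Itgam was higher in SSMs by 2.56 on the log2 scale and Itgax lower, at -2.34. The part of macrophage number or state in the values of Lyve1 was not tested.

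Pdpn (chromosome 4, 143267431 to 143299564) had 21 and 0 counts in ndLN SSMs, 48 and 25 in tdLN SSMs, 30 and 4 in ndLN MSMs, and 24 and 18 in tdLN MSMs. In SSMs both tdLN libraries were above both ndLN libraries, and in MSMs the groups overlapped. The log2 difference in SSMs was 2.06 (SE 0.960, adjusted p = 0.241). It was 1.57 without pool 2 of ndLN SSMs and 7.48 without pool 1, which leaves the library at 0 and a value that is no bound. Of 13 genes of fibroblastic reticular and other stromal cells, a second source of Pdpn, none was called between tdLN and ndLN in SSMs by edgeR, 1 was by DESeq2's Wald test, and 1 had an unadjusted p under 0.05 by edgeR. The list summed to 83.2 to 145 CPM in tdLN SSMs and 30.6 to 60.4 in ndLN SSMs, with 37.1 to 98.2 in tdLN MSMs and 18.6 to 23.3 in ndLN MSMs. Cxcl13, a B cell chemokine gene, made up between 33.3% and 62.5% of it in tdLN SSMs, and without it the sums were 54.2 to 55.5 CPM there and at most 51.4 in ndLN SSMs. Pdgfrb, a pericyte and stromal receptor gene, was higher in SSMs over both kinds of node by 2.42 on the log2 scale, a call lost without 6 of the 8 libraries in turn. Col1a1, for example, had 46 and 176 counts in ndLN SSMs and 350 and 227 in tdLN SSMs. The gate for CD45+ leukocytes was not set for these stromal cells, and the part of stromal RNA in the values of Pdpn was not tested.

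Madcam1 (chromosome 10, 79664559 to 79668537) had 4 and 46 counts in ndLN SSMs, 46 and 113 in tdLN SSMs, 0 and 45 in ndLN MSMs, and 0 and 62 in tdLN MSMs. The library of pool 2 was above that of pool 1 in each of the 4 groups. The term for pool gave a log2 difference of 2.44 (SE 0.690, unadjusted p = 0.00584, adjusted p = 0.845), a test looked at after the counts were seen, and edgeR called 0 genes between pools, with 1014 of 21085 at an unadjusted p under 0.05. Between tdLN and ndLN in SSMs the log2 difference was 1.93 (SE 0.805, adjusted p = 0.187), and in tdLN SSMs were above MSMs by 1.47 (SE 0.774, adjusted p = 0.258). Both values are loose, at 1.37 to 5.13 and 0.97 to 8.01 with 1 library left out, the last against a library at 0, and at 3.36 and 4.11 by DESeq2's Wald test (adjusted p = 0.114 and 0.0396).

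In 4 comparisons none of the 9 genes was called by edgeR. For SSMs against MSMs in tdLN, 2 of the 7 tested genes had an unadjusted p under 0.05 and 0 were called by DESeq2's Wald test, beside 9.38% of all genes called by edgeR. For tdLN against ndLN in MSMs, 1 had an unadjusted p under 0.05 and DESeq2's Wald test called 0, beside 0.0237%. For the interaction these counts were 2 and 0, beside 0.0379%, and for tdLN against ndLN over both subsets they were 2 and 1, the latter Lyve1, beside 0.242%. A likelihood ratio test that took each lane as a sample called 2, 1, 2 and 2 genes in these comparisons, but it counts the lanes of 1 library as independent samples. The median log2 difference of the 7 tested genes, with genes at the floor set to their bound, was 0 for subsets in ndLN, -1.43 for subsets in tdLN, 0 for node in SSMs and 1.20 for node in MSMs. Without the bounds the medians were -0.03, -1.43, 0.05 and 1.20. Over all genes the medians were 0.0911, 0.0243, -0.035 and 0.00928.

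A list of 14 other lymphatic endothelial genes behaved unevenly, with 12 tested. In ndLN 2 were higher in SSMs, beside 14.0% of all genes called. In tdLN 1 was called, beside 9.38%, and over both kinds of node 3 were, beside 15.4%. Stab2, a scavenger receptor of sinus endothelium, had 774 and 815 counts in ndLN SSMs, 298 and 270 in tdLN SSMs, 29 and 1 in ndLN MSMs, and 55 and 14 in tdLN MSMs. Its log2 difference in ndLN was 5.41, a call lost only without pool 2 of ndLN MSMs (adjusted p = 0.0117). Itga9, an integrin subunit of lymphatic valves, had 787 and 415 counts in ndLN SSMs and 67 and 98 in ndLN MSMs, with log2 differences of 2.51 in ndLN and 2.69 in tdLN, calls lost without 3 and 4 of the 8 libraries in turn. Over both kinds of node, Nrp2, a co-receptor for VEGF-C, was lower in SSMs by a log2 value of -1.30, a call lost without 6 of them. None of the 12 was called between tdLN and ndLN by edgeR, with 4 in SSMs and 3 in MSMs at an unadjusted p under 0.05, and DESeq2's Wald test called 0 and 1. Lamp5 was at 0 in all libraries, as Ccl21a was, and Tek, an angiopoietin receptor, had 24 and 49 counts in ndLN MSMs and 0 elsewhere. Pool 2 of ndLN MSMs also held 70 of the 74 counts of Tie1 and 52 of the 94 of Sox18, both on this list. Not all genes of the list were high in that library, since Stab2 had 1 count there. The list summed to 54.0 to 57.9 CPM in ndLN SSMs, 64.5 to 74.4 in tdLN SSMs, 41.9 to 60.7 in ndLN MSMs and 94.5 to 139 in tdLN MSMs. Nrp2 made up between 88.6% and 93.7% of it in tdLN MSMs, and the other 13 genes summed to 35.4 to 35.9, 29.1 to 33.9, 6.67 to 9.67 and 8.72 to 10.8 CPM in the same order of groups.

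Ligands and receptors of the 9 genes were measured in the same libraries, 17 in the list and 14 tested. Between subsets 0 were called in ndLN, 1 in tdLN and 3 over both kinds of node, and 2 were called for node in SSMs. The shares of all genes were 14.0%, 9.38%, 15.4% and 3.16% in that order. Vegfc, the ligand of Flt4, had 414 and 145 counts in ndLN SSMs, 103 and 215 in tdLN SSMs, 27 and 0 in ndLN MSMs, and 17 and 34 in tdLN MSMs. All 4 SSM libraries stood above all 4 MSM libraries, and over both kinds of node the log2 difference was 3.26. Vegfd, the other ligand, was at 0 in all libraries. Kdr (VEGFR2), the second receptor for VEGF-C, rose in tdLN SSMs by 2.57 on the log2 scale, from 516 and 134 to 1738 and 1288 counts. In MSMs its log2 difference was 1.91 (adjusted p = 0.123 by edgeR). The interaction was 0.66 (adjusted p = 0.751 by edgeR), so the rise was not shown to be particular to SSMs. Itgb7, a subunit of the receptor for Madcam1, fell in tdLN SSMs by 0.89 on the log2 scale. Lgals8, a galectin that binds podoplanin, was higher in tdLN SSMs than in tdLN MSMs by 2.10. Clec1b, which encodes CLEC-2, had between 8 and 88 counts and was not called in any comparison by edgeR. The calls of Kdr and Itgb7 were lost without any 1 of the 8 libraries, that of Lgals8 without 4 of them and that of Vegfc without 6.

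Sinus niche factors pass between lymphatic endothelium and the macrophages, with CSF1 and RANKL (Tnfsf11) known as signals for sinus macrophages. Of 7 listed genes, 5 were higher in ndLN SSMs than in ndLN MSMs, beside 14.0% of all genes called. They were Tnfsf11, Lta, Ltb, Csf1 and Csf1r. The receptor genes Tnfrsf11a and Ltbr had log2 differences of -0.59 and -0.93 there, not past the threshold. In tdLN, Tnfrsf11a, the gene of the RANKL receptor, was lower in SSMs than in MSMs by a log2 value of -1.11 (adjusted p = 0.00643 by edgeR). Tnfsf11 had 9730 and 11949 counts in ndLN SSMs, 2750 and 1833 in tdLN SSMs, 108 and 311 in ndLN MSMs, and 38 and 30 in tdLN MSMs. Its log2 difference between subsets was 5.42 in ndLN, a call kept with each library left out in turn, and it fell by 1.99 on the log2 scale in tdLN SSMs, a call lost without any 1 of the 8. Both libraries of ndLN SSMs were again the highest. T cells are also known to express Tnfsf11, Lta and Ltb, and the T cell markers given above moved in the same direction, and their part was not tested. Csf1 had 3262 and 2407 counts in ndLN SSMs and 590 and 595 in ndLN MSMs, a log2 difference of 1.95, which was not called without 3 of the 8 libraries in turn.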

How the data were processed

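The authors prepared cDNA with the SMART-Seq v4 kit, sequenced each of 8 libraries on lanes 3 and 4, trimmed reads with Trimmomatic 0.36, aligned them to GRCm38 with STAR 2.5.3a after bcl2fastq 2.20.0.422 (versions from the submitters' processing notes) and deposited raw counts per gene for 16 lane samples. The annotation release and the strand setting are not given in the sources used here. Gene symbols and exon lengths came from GENCODE M21, which matched 55154 of 55421 gene rows, and 2 rows of added sequences were left out.

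Lanes were summed, since they differed by no more than sampling noise (chi-square per degree of freedom between 0.955 and 1.02, against 29.3 to 53.1 between pools). Group and pool were the terms of the fit to the 8 libraries, or pool, subset and node for the comparisons over both, by edgeR 4.0.16's quasi-likelihood test in R 4.3.3, after a filter (at least 10 counts in all and detection in at least 2 samples) that left 21085 genes. Calls were made at a Benjamini-Hochberg adjusted p under 0.01. Pool numbers pair libraries because each pool of mice gave all 4 groups. The label of 1 library of tdLN SSMs has no pool number, and it was taken as pool 1 beside the library numbered 2. The paper counts 4 pools, whereas the labels show 2 pools, each on 2 lanes. The deviations of same-numbered libraries from their group means were correlated between -0.142 and 0.099 over 12268 genes. Alternatives included DESeq2 1.42.0. The scripts were tested on simulated data. Python 3.11, pandas 2.3.3 and matplotlib 3.10.9 did the rest.

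The members and lists were chosen with earlier results of these data known. All 9 genes are named, with from each other list up to 3 called genes of largest change per comparison and the defining markers. Csf1, Csf1r, Lta, Ltb, Lyz2, Zap70, Mcpt8, Col1a1, Tek, Lamp5, Vegfd, Erg and Clec1b also serve as examples chosen after their values were seen. So do Tie1, Sox18, Egfl7, Mmrn2, Tnfrsf11a and Ltbr.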

Additional observations from a re-analysis of the deposited data

Results flagged for a closer look

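Prox1 moved in opposite directions in the subsets. It was lower in tdLN than in ndLN in both pools of SSMs (by -1.06 and -0.546 CPM) and higher in both pools of MSMs (by 0.291 and 0.726 CPM). The test of this difference, the interaction term of edgeR's fit, gave an adjusted p of 0.148 and did not pass the threshold. The counts behind it were between 0 and 65 per library.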

How the results depend on the processing

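Of the 9 genes, the number called was 1 for subsets in ndLN, for node in SSMs and for subsets in both kinds of node, always Cldn5, and 0 in the other 4 comparisons. The 1 gene that DESeq2's Wald test called for node in SSMs was Lyve1. For subsets in ndLN it was 3 by DESeq2's Wald test and by the likelihood ratio test on lanes, 2 at an adjusted p under 0.05, and 0 with only the libraries compared, with a Holm adjustment, with a mean normalized count over 100 per lane or with the legacy quasi-likelihood fit. For node in SSMs it was 5 by the likelihood ratio test on lanes and 0 with no filter on low counts and under the last 4 settings. For subsets in both kinds of node it was 2 on lanes and 0 under Holm, the mean count cut-off and the legacy fit. On lanes it was 2 for subsets in tdLN, 1 for node in MSMs, 2 for the interaction and 2 for node in both subsets. For node in both subsets it was 1 by DESeq2's Wald test and 1 at an adjusted p under 0.05. With 1 library left out it ranged from 0 to 1 for subsets in ndLN and for subsets in both kinds of node, and was 0 for node in SSMs throughout. A group with 1 library left is assumed to vary like the others. The fit without the replicate block changed no call, and there Cldn5 had log2 differences of 3.95 in ndLN, -3.21 for node in SSMs and 3.49 in both kinds of node (adjusted p = 0.000711, 0.00455 and 0.000875). The log2 difference of Cldn5 between tdLN and ndLN in MSMs was -4.80 to 0.54 with 1 library left out, reversed to 0.54 without pool 2 of ndLN MSMs and to 0.01 without pool 2 of tdLN MSMs, and its interaction was -3.75 to 1.59, reversed to 1.59 without pool 1 of tdLN MSMs. With 2 libraries per group and most values near the floor of 3 counts, differences in Prox1, Pdpn, Lyve1, Madcam1 and Flt4 and those of Cldn5 in MSMs or in tdLN are poorly measured. The p-values rest on the spread left after the terms of the fit, pool among them. That spread comes from 2 pools of mice and is shared by the 4 groups.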

Other observations

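Genes of blood endothelium and high endothelial venules, 10 in the list and 9 tested, gave 2 calls between the subsets in ndLN, Vwf and Nos3, beside 14.0% of all genes. Vwf, the von Willebrand factor gene, had 137 and 15 counts in ndLN SSMs, 73 and 35 in tdLN SSMs, 837 and 606 in ndLN MSMs, and 947 and 1342 in tdLN MSMs. All 4 MSM libraries stood above all 4 SSM libraries, and the log2 difference of SSMs from MSMs was -3.60 in ndLN and -4.47 in tdLN, each lost as a call without 3 of the 8 libraries in turn. Nos3, the endothelial nitric oxide synthase gene, was lower in ndLN SSMs by a log2 value of -2.99, with 14 and 14 counts against 85 and 95, a call lost without any 1 of the 8. Plvap, which encodes a protein of vessel diaphragms, was lower in SSMs over both kinds of node by a log2 value of -2.06, a call lost without 7 of the 8. Of the 1154 counts of Plvap, 580 were in pool 2 of ndLN MSMs. At 2.36, 1.70 and 4.09 CPM, the other MSM libraries overlapped with pool 2 of ndLN SSMs at 2.43 CPM. Aplnr, Sele and Ly6c1 had log2 differences of 3.76, 3.71 and 1.98 over both kinds of node, which did not pass the threshold (adjusted p = 0.017, 0.0223 and 0.0264 by edgeR). The venule genes Glycam1 and Chst4 were at or under 5 counts except for 46 and 6 counts in tdLN MSMs of pool 2. The library in which Madcam1 was highest, tdLN SSMs of pool 2 with 113 counts, had 1 count of Glycam1 and 0 of Chst4. It also had 250 counts of Sele, at 5.73 CPM the highest level of that gene in any library. Of Ackr1, also on this list, it had 20 counts, against 42 in tdLN MSMs of pool 2. The source of Madcam1 was not tested. The list summed to 14.2 to 37.4 CPM in ndLN SSMs and 31.6 to 42.9 in ndLN MSMs.

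Among the lymphatic, endothelial, ligand and receptor genes, 2 were over the floor in at least 3 libraries of pool 1 and at or under it in all of pool 2. Clca3a1, a marker of lymphatic endothelium, had 48, 16, 21 and 5 counts in pool 1 and 0, 0, 1 and 2 in pool 2, in the order ndLN SSMs, tdLN SSMs, ndLN MSMs and tdLN MSMs. Vldlr, a receptor for reelin, had 22, 40, 22 and 7 counts in pool 1 and 0 in all of pool 2. Neither passed the test between pools, which was looked at after the counts were seen (adjusted p = 0.845 for both by edgeR).

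B cell markers, 9 in all, summed to 315 to 403 CPM in ndLN SSMs, 961 to 990 in tdLN SSMs, 559 to 1690 in ndLN MSMs and 594 to 601 in tdLN MSMs. Ighm and Fcgr2b, an Fc receptor gene that macrophages also express, made up between 80.3% and 94.0% of these sums. Fcgr2b rose in tdLN SSMs by 2.44 on the log2 scale and was higher there than in tdLN MSMs by 1.82. The signalling genes Btk and Blnk were lower in SSMs, Btk by a log2 value of -1.98 in ndLN and Blnk by -1.83 in tdLN, Btk rose in tdLN SSMs by 1.27, and Cd79b was higher in SSMs over both kinds of node by 1.23. The call of Btk for node in SSMs was lost without any 1 of the 8 libraries and that of Cd79b without 7 of them in turn. Dendritic cell markers, 7 in all, summed to 1410 to 2130 CPM in ndLN SSMs, 732 to 1120 in tdLN SSMs, 3600 to 3990 in ndLN MSMs and 4060 to 4090 in tdLN MSMs. Of the 7, 5 were lower in ndLN SSMs than in ndLN MSMs, beside 14.0% of all genes called. Clec9a, Cd207 and Xcr1 led with log2 differences of -7.00, -5.69 and -4.65 in ndLN and -7.15, -5.75 and -5.48 in tdLN.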
